A study of Mus musculus with 6 samples.

Results

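The genes described here are 10 members of the epidermal growth factor (EGF) system, taken by name from the deposited gene table of 40993 entries. They are 6 ligands (Egf, Hbegf, Areg, Ereg, Tgfa and Btc) and 4 receptors (Egfr, Erbb2, Erbb3 and Erbb4), and each was found once in the table. They were measured in whole kidneys of 2-month-old C57BL/6 mice, a common inbred strain, by RNA sequencing. One group of 3 samples came from mice on a standard diet and the other group of 3 from mice on an adenine-enriched diet, which is widely used to injure the kidney in rodents. The sources used here do not give the adenine dose, the length of feeding or the sex of the mice. They also do not state that each sample is a separate animal, and p-values therefore reflect only how far the samples spread, which may be technical. Libraries are named by diet and replicate, as in standard 1 or adenine 3.

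EGF family ligands are made as precursors anchored in the cell membrane, and proteases of the ADAM family cut them free. A released ligand joins ErbB receptors into pairs, which switch on the Ras-ERK and PI3K-Akt relays and, through them, genes for growth and repair. ErbB2 has no known ligand of its own and ErbB3 has little kinase activity, so both work mainly as partners of the other receptors. In the kidney, Egf is made by the thick ascending limb and the distal convoluted tubule and passes into urine, while the EGF receptor is found along much of the tubule.

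Levels are given in FPKM, which corrects for the length of the transcript and the depth of the library, so that genes can be compared with each other. Each ± is the SD of 3 samples. Log2 changes are adenine minus standard on log2(FPKM + 1), which understates the change of low genes, and p-values are from limma with Benjamini-Hochberg adjustment over the 15431 genes whose mean reached 0.5 FPKM. Depth, estimated from the steps between low values, was 17.4 to 22.9 M fragments per library. Glomerular and tubular signal was present in both groups: 4 podocyte markers summed to 84.2 to 94.3 FPKM in the standard and 126 to 149 FPKM in the adenine libraries, and 5 collecting duct markers to 176 to 310 FPKM and 227 to 239 FPKM. The median of all genes tested was 0.25 log2 units higher in the adenine libraries. Median-of-ratios scaling, which divides each library by its median ratio to the mean library, takes that shift out.

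Of the 10 members 8 passed the filter, and among these Hbegf and Tgfa rose, Egf fell and 5 did not pass the threshold of adjusted p = 0.05. Over all genes tested 29.7% rose, 6.84% fell and 36.5% changed either way, so the 2 rises and 1 fall among 8 members are close to the background. With the replicate number as a block Erbb2 joined the rises (limma adjusted p = 0.0347), giving 3 rises and 1 fall, where 31.3% of all genes rose, 7.34% fell and 38.6% changed either way. The median log2 change of the 8 was 0.28, against 0.25 for all genes tested. After median-of-ratios scaling 1 member rose and 1 fell, where 32% of all genes changed. Areg and Ereg lay below the filter and were tested only in a fit without it, in which 21.9% of 22768 genes changed and 3.65% fell. Among the 8 tested members the libraries of the 2 diets were apart for 4 that were higher, beside 44.4% of all genes tested, and for 1 that was lower, beside 11.8%. Over all 10 members, the adenine libraries were entirely above the standard libraries for 6, entirely below for 1 and overlapping for 3, where 35.3% of genes with any signal were entirely above and 8.76% entirely below.

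**Figure D1:**
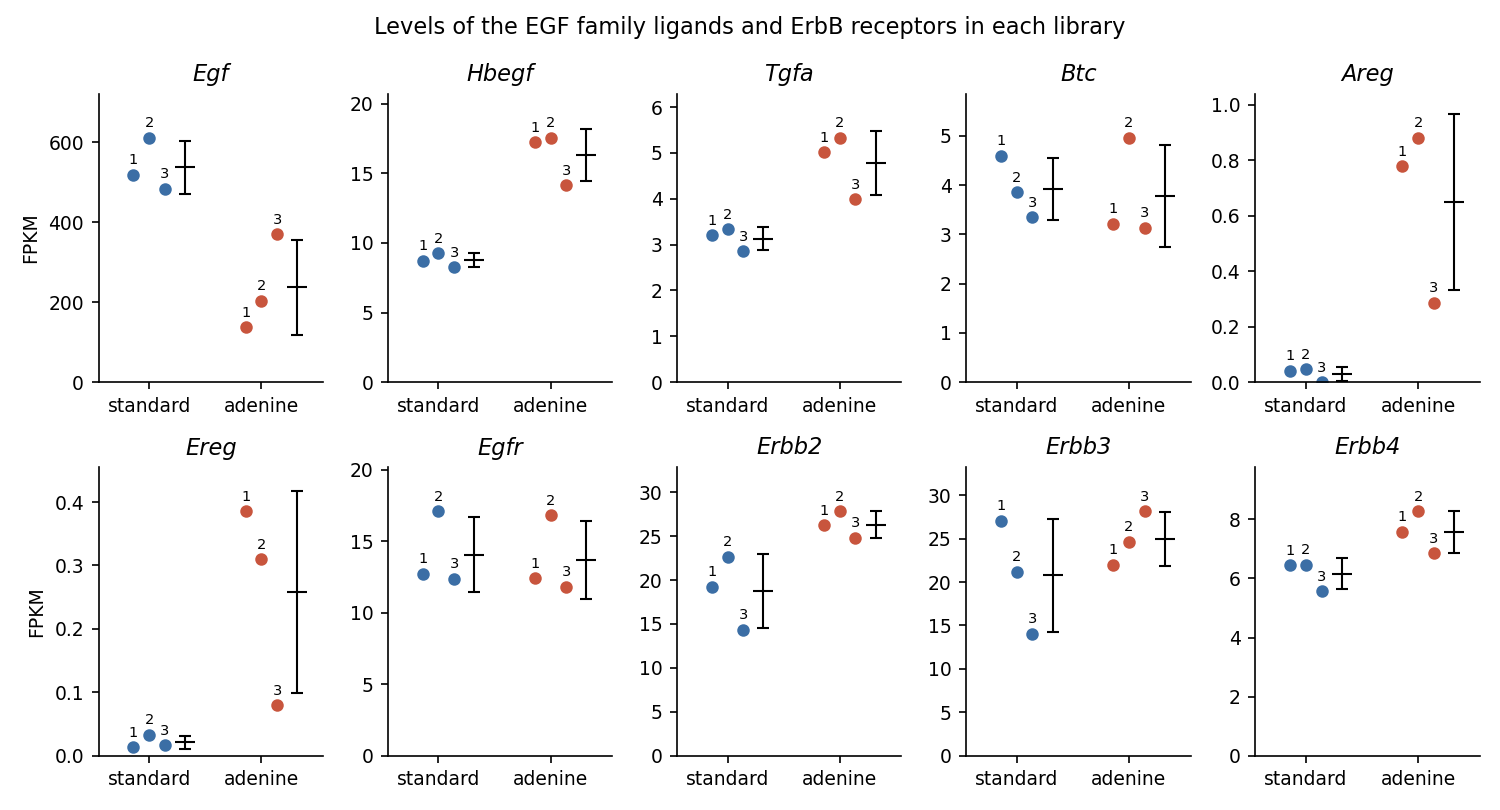
FPKM of each member (y axes, each starting at 0) in the standard (blue) and adenine (red) libraries, numbered by replicate, with the mean and SD of 3 libraries in black. The adenine points lie below the standard points for Egf, above them for Hbegf, Tgfa, Areg, Ereg, Erbb2 and Erbb4, and among them for Btc, Egfr and Erbb3.

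Egf, the founding ligand of the family, was the only member that fell. Its gene lies on chromosome 3 from 129677575 to 129755322 on the minus strand (GRCm38). Egf was 518, 611 and 483 FPKM in standard 1 to 3 and 138, 204 and 369.6 FPKM in adenine 1 to 3. All adenine libraries were below all standard libraries, and adenine 3 was the closest to them. The means were 538 ± 66.2 and 237 ± 119.6 FPKM, a 2.27-fold difference (log2 change -1.29, SE 0.35, limma adjusted p = 0.0301). Among 15272 tested genes that span at least 300 bp, Egf ranked 115, 93 and 133 by level in the standard libraries and 547, 321 and 170 in the adenine libraries. In whole tissue, fewer Egf-making cells and less Egf RNA per cell cannot be told apart. The call ended without standard 1, 2 or 3 (limma adjusted p = 0.081, 0.0932 and 0.0759), without adenine 1 or 2 (0.0553 and 0.0972), with quantile normalization (0.0556) and without the filter (0.0531), while the sign held in all 16 alternatives.

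The start of the Egf gene is shown because Egf is the one member that fell. The sequence is from RefSeq (GRCm38.p6, minus strand, chr3:129755273-129755572), runs from 250 bases before to 50 after the annotated start, and holds none of the 4 motifs searched below.
Egf: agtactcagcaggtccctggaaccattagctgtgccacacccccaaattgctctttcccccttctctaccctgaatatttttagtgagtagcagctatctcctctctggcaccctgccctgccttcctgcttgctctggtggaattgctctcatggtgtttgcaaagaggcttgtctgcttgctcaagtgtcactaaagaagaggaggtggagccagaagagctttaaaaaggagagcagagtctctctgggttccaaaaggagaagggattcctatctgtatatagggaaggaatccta

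Egf was set against genes of the segments that make it, first Umod, which encodes uromodulin, the main protein of normal urine. Umod was 2393 to 2636 FPKM in the standard and 2888 to 3505 FPKM in the adenine libraries and did not pass (log2 change 0.39, limma adjusted p = 0.309), though it did without the intensity trend in the variance prior (0.044). The Egf to Umod ratio of FPKM was 0.217, 0.232 and 0.194 in standard 1 to 3 and 0.0476, 0.0581 and 0.106 in adenine 1 to 3. The groups were apart, with a 3.03-fold lower mean ratio in the adenine libraries. An exact permutation test over the 6 samples gave p = 0.1, the smallest that 3 against 3 can give (two-sided, 0.15 after Benjamini-Hochberg adjustment over 3 tests). Slc12a1, the sodium-potassium-chloride cotransporter of the same segment, was lower on the adenine-enriched diet, at 421 ± 73.8 FPKM against 689 ± 75.1 FPKM (limma adjusted p = 0.0234). The Egf to Slc12a1 ratio overlapped between the groups, at 0.674, 0.903 and 0.778 against 0.384, 0.505 and 0.736. Slc12a1 no longer passed when standard 1, 2 or 3 was left out (limma adjusted p = 0.0773, 0.0726 and 0.0553), when adenine 1 or 2 was (0.0517 and 0.0918), or with quantile normalization (0.0695). Summed over the 7 thick ascending limb markers, the level was 3409 to 3635 FPKM in the standard and 3530 to 4301 FPKM in the adenine libraries, of which Umod makes up most. Among these 7 markers 1 rose and 1 fell, and 5 did not pass, where 29.7% of all genes tested rose and 6.84% fell. After median-of-ratios scaling 0 of the 7 rose and 2 fell, and with quantile normalization 0 rose and 0 fell. At an unadjusted p under 0.05 (limma), 0 were higher in both, and 3 and 1 were lower.

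The distal convoluted tubule, the other source of Egf, gave a mixed picture. Its 4 markers summed to 152, 215 and 209 FPKM in standard 1 to 3 and 162, 184 and 226 FPKM in adenine 1 to 3, with overlapping groups. Of the 4, 1 rose and 0 fell (limma, 1 lower at an unadjusted p under 0.05). Of all genes tested 29.7% rose and 6.84% fell. With the replicate number as a block 0 of these 4 markers rose and 1 fell. Under either median-of-ratios or quantile scaling 0 passed (limma, 1 higher and 2 lower, and 0 higher and 1 lower, at an unadjusted p under 0.05). The following genes were singled out after their values were seen. Pvalb, which encodes the calcium-binding protein parvalbumin, was 16.7, 21.6 and 22.4 FPKM in standard 1 to 3 and 5.28, 9.20 and 17.9 FPKM in adenine 1 to 3, the order of Egf among the adenine libraries. Its log2 change of -0.98 did not pass (limma adjusted p = 0.083) but did with the block (0.0369). Slc12a3, the sodium-chloride cotransporter of this segment, was 125 ± 26.0 and 138 ± 19.5 FPKM and did not pass (0.52). Calb1 was 44.4 ± 7.64 and 37.3 ± 7.67 FPKM and did not pass either (0.303). The order of Egf in adenine 1 to 3 was not particular to Pvalb. Slc12a3 had it too, at 120, 135 and 159 FPKM, as did Calb1, at 31.1, 35.0 and 45.9 FPKM. Trpm6 had the reverse order, at 4.90, 3.94 and 3.12 FPKM. The marker that rose was Trpm6, from 2.21 ± 0.489 to 3.99 ± 0.889 FPKM, opposite in direction to Egf (log2 change 0.63, limma adjusted p = 0.0418).

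Hbegf, the heparin-binding ligand of EGFR and ErbB4, rose. Its gene lies on chromosome 18 from 36504929 to 36515805. Hbegf was 8.74, 9.26 and 8.26 FPKM in standard 1 to 3 and 17.2, 17.6 and 14.1 FPKM in adenine 1 to 3. The groups were far apart relative to their spread, with adenine 3 the lowest of the adenine libraries. The rise was 1.86-fold, from 8.76 ± 0.499 to 16.3 ± 1.89 FPKM (log2 change 0.82, SE 0.12, limma adjusted p = 0.0063), and it was called in all 16 alternatives (limma adjusted p = 0.00339 to 0.0362).

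Tgfa, a ligand of EGFR that many epithelia make, lies on chromosome 6 from 86195251 to 86275449. It was 3.20, 3.34 and 2.85 FPKM in standard 1 to 3 and 5.02, 5.34 and 3.997 FPKM in adenine 1 to 3. All adenine values exceeded all standard values, again with adenine 3 nearest to them. Tgfa rose 1.53-fold (log2 change 0.48, SE 0.14, limma adjusted p = 0.0387), beside the 0.25 shift of all genes. The call ended after median-of-ratios scaling (log2 change 0.24, limma adjusted p = 0.143), with quantile normalization (-0.02, 0.91), without the filter (0.0718), and without standard 1, 2 or 3 (0.0918, 0.0831 and 0.107) or adenine 1 or 2 (0.0966 and 0.139).

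**Figure D2:**
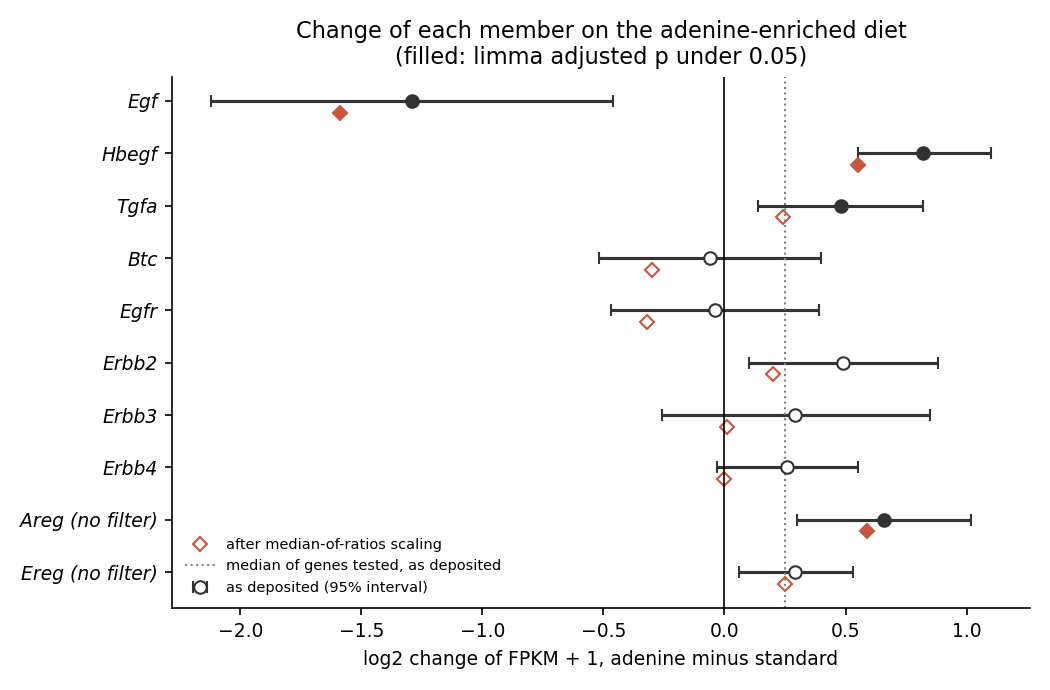
Log2 change of FPKM + 1, adenine minus standard (x axis), for each member (y axis), with black circles for the values as deposited and their 95% interval and red diamonds for median-of-ratios scaling; filled symbols passed adjusted p = 0.05. Egf at -1.29 and Hbegf at 0.82 are filled on both scales, while Tgfa at 0.48 is filled only as deposited.

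Areg and Ereg, which encode the ligands amphiregulin and epiregulin, were nearly silent on the standard diet. Both are neighbours on chromosome 5, on the plus strand, with Ereg from 91074617 to 91093649 and Areg from 91139615 to 91148432, 46.0 kb apart. Areg was 0.0412, 0.0472 and 0 FPKM in standard 1 to 3 and 0.779, 0.882 and 0.287 FPKM in adenine 1 to 3. For its transcript of 1215 bases this corresponds to about 1, 1 and 0 fragments in the standard and 18, 20 and 5 in the adenine libraries, so no fold is given. The groups did not overlap, and Areg rose in the fit without the filter (log2 change 0.66, SE 0.15, limma adjusted p = 0.0303), where 18.2% of 22768 genes rose. It did not pass when standard 1, 2 or 3 was left out (limma adjusted p = 0.10, 0.0958 and 0.104), nor when adenine 1 or 2 was (0.106 and 0.103).

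Ereg was lower still, and as for Areg adenine 3 was the lowest adenine library. It was 0.013, 0.033 and 0.0166 FPKM in standard 1 to 3, about 1, 2 and 1 fragments of its 4128-base transcript. In adenine 1 to 3 it was 0.386, 0.31 and 0.0796 FPKM, about 35, 28 and 5 fragments. All adenine values were above all standard values, but at these levels the log2 change of 0.29 (SE 0.09) did not pass in the fit without the filter (limma adjusted p = 0.0743). It passed with a pseudocount of 0.1 in place of 1 (0.0475) and without adenine 3 (0.00831).

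Epgn and Btc, which encode epigen and betacellulin, are the other ligand genes of this stretch of chromosome 5, which spans 376 kb from Epgn to Btc. Epgn lies from 91027464 to 91035215, 39.4 kb before Ereg, and was listed at 0 in all libraries except adenine 2, where it was 0.0291 FPKM. Btc lies from 91357261 to 91402994 on the minus strand, 209 kb beyond Areg, with 1 other annotated gene between them. Btc was 4.59, 3.85 and 3.34 FPKM in standard 1 to 3 and 3.22, 4.97 and 3.14 FPKM in adenine 1 to 3. The ranges overlapped, and the log2 change of -0.06 (95% interval -0.52 to 0.40) did not pass (limma adjusted p = 0.814). Thus Areg rose from almost nothing where Btc, of the same stretch and expressed in every library, had overlapping groups. The difference between Areg and Btc was not tested.

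The starts of Areg and Btc are shown as 2 ligand genes of this stretch with unlike values, from RefSeq (GRCm38.p6, 250 bases before to 50 after the annotated start). Capitals mark motifs that a search of both strands found. Areg is chr5:91139349-91139648 on the plus strand, with its RefSeq start 16 bases before the deposited one, and Btc is chr5:91402945-91403244 on the minus strand.
Areg: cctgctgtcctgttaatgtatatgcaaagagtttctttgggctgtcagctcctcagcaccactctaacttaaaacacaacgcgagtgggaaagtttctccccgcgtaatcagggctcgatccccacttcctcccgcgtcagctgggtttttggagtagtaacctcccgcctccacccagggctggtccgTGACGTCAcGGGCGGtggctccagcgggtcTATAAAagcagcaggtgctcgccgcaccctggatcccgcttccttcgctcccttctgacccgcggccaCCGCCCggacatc
Btc: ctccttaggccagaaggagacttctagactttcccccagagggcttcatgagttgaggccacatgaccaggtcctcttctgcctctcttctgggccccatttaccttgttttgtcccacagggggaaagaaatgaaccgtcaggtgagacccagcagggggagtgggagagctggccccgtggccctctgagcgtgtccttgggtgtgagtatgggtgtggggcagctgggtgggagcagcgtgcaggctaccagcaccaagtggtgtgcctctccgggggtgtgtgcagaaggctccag
The letters searched were TGACGTCA (the cyclic AMP response element, CRE), TGANTCA (AP-1), GGGCGG (the GC box) and TATAAA (the TATA box), and no matches overlapped. The Areg start holds the CRE letters from -61 to -54 before the start, a GC box from -52 to -47, a TATA box from -31 to -26 and, on the other strand, a GC box from 37 to 42 after the start. Among 32817 annotated starts of the same length, 1.79% held the CRE letters, 7.81% AP-1, 35.6% a GC box and 13.6% a TATA box. RefSeq starts were matched for 7 members, of which 1 held a CRE, 1 a TATA box, 3 a GC box (Areg, Tgfa and Egfr) and 0 an AP-1 match. These matches describe letters in the window and are not measured binding sites.

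The pool of ligand transcripts was dominated by Egf in both groups. Egf made up 96.9%, 97.4% and 97.1% of the summed FPKM of the 6 ligands in standard 1 to 3 and 83.8%, 87.5% and 94.5% in adenine 1 to 3. These percentages do not depend on how a library is scaled. The adenine libraries were all lower (exact permutation test, two-sided p = 0.1, the smallest possible, 0.15 adjusted over 3 tests). The Hbegf share was 1.48% to 1.66% in the standard libraries and 10.5%, 7.55% and 3.62% in adenine 1 to 3. One Hbegf unit of FPKM therefore stood against 58.5 to 66.0 of Egf on the standard diet and against 7.98, 11.6 and 26.1 in adenine 1 to 3. A share also rises when Egf falls. The mean Btc share was 0.715% in the standard and 1.63% in the adenine libraries, with overlapping groups, while its mean level was 3.93 and 3.77 FPKM. The level of Hbegf itself rose 1.86-fold. Without Egf, the other 5 ligands summed to 14.5 to 16.6 FPKM in the standard and 21.6 to 29.1 FPKM in the adenine libraries.

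**Figure D3:**
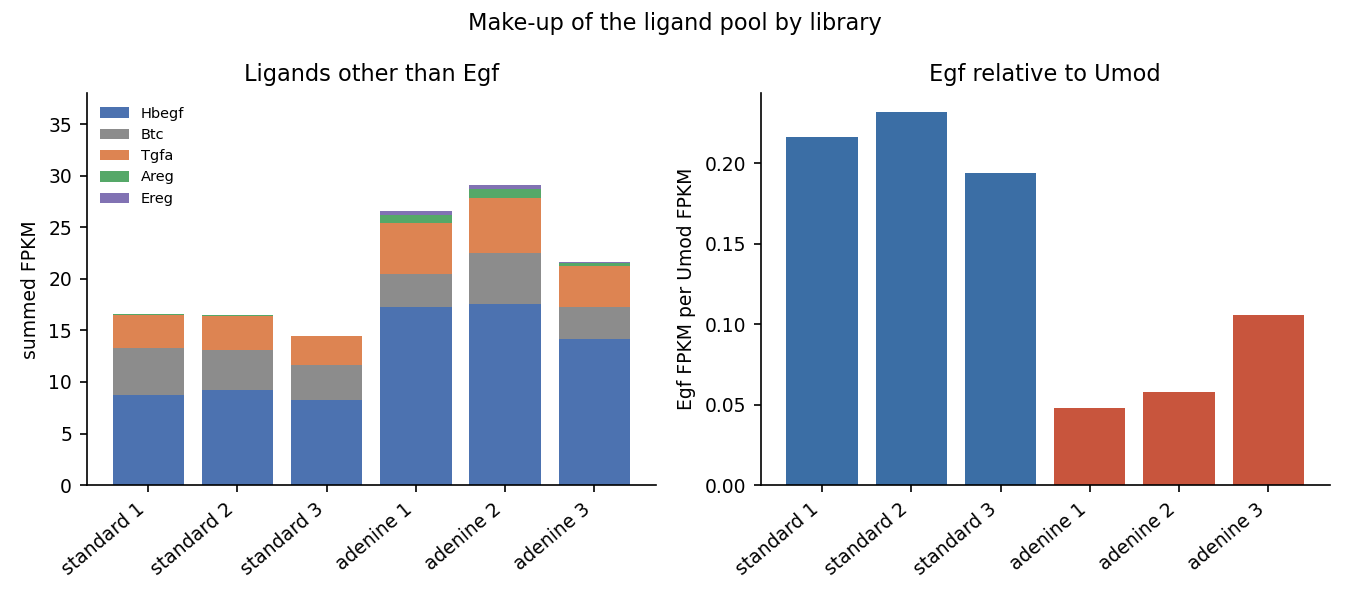
Left, summed FPKM (y axis) of the 5 ligands other than Egf in each library (x axis), stacked by ligand; right, Egf FPKM per Umod FPKM in each library, standard in blue and adenine in red. The stacks are 14.5 to 16.6 FPKM in the standard and 21.6 to 29.1 FPKM in the adenine libraries, and the ratio is lowest, at 0.0476, in adenine 1.

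Among the receptors, 0 of 4 passed the threshold (limma, 1 of 4 at an unadjusted p under 0.05). Of all genes tested 36.5% passed, and whether the receptors differ from that share was not tested. Egfr, the receptor for Egf, Tgfa and Areg (chromosome 11, 16752203 to 16918158), was 12.7, 17.1 and 12.4 FPKM in standard 1 to 3 and 12.4, 16.8 and 11.8 FPKM in adenine 1 to 3. The groups overlapped, and replicate 2 was highest on both diets. Its log2 change was -0.04 (95% interval -0.47 to 0.39, limma adjusted p = 0.87), which became -0.32 after median-of-ratios scaling (0.184), and with that scaling and the replicate number as a block it was called lower (0.0447).

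Erbb2, the partner receptor without a known ligand, lies on chromosome 11 from 98412470 to 98437716. It was 19.2, 22.7 and 14.3 FPKM in standard 1 to 3 and 26.2, 27.9 and 24.8 FPKM in adenine 1 to 3. The adenine libraries were all higher, by a log2 change of 0.49 (95% interval 0.10 to 0.88), but the difference did not pass (limma adjusted p = 0.0568). It passed with the replicate number as a block (0.0347) and without standard 2 (0.0454), and its log2 change shrank to 0.20 after median-of-ratios scaling (0.307).

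Erbb3, the receptor for neuregulins with little kinase activity (chromosome 10, 128567523 to 128589652), was 27.1, 21.2 and 14.0 FPKM in standard 1 to 3 and 22.0, 24.7 and 28.2 FPKM in adenine 1 to 3. The standard libraries alone spanned nearly the whole range of both groups. The log2 change was 0.29 (95% interval -0.26 to 0.85, limma adjusted p = 0.339). Erbb4, a receptor for neuregulins, Hbegf and Btc (chromosome 1, 68032186 to 69108059), was 6.45, 6.47 and 5.56 FPKM in standard 1 to 3 and 7.59, 8.28 and 6.86 FPKM in adenine 1 to 3. Its groups did not overlap, yet the log2 change of 0.26 (95% interval -0.03 to 0.55, limma adjusted p = 0.128) was near the 0.25 shift of all genes and was -0.00 after median-of-ratios scaling.

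Within the receptor pool no gene dominated as Egf did among the ligands. Egfr made up 19.4%, 25.4% and 26.7% of the summed receptor FPKM in standard 1 to 3 and 18.2%, 21.7% and 16.5% in adenine 1 to 3, with overlapping groups (exact permutation test, two-sided p = 0.2, also 0.2 adjusted over 3 tests). The Erbb2 share was 29.4% to 33.6% in the standard and 34.6% to 38.5% in the adenine libraries, and the shares of Erbb3 and Erbb4 overlapped. In order of mean level on the standard diet, Egf was followed by Erbb3, Erbb2, Egfr, Hbegf, Erbb4, Btc, Tgfa, Areg and Ereg. The ranges of Erbb3, Erbb2 and Egfr overlapped from one to the next, as did those of Areg and Ereg, and the other neighbours were apart. On the adenine-enriched diet the order was Egf, Erbb2, Erbb3, Hbegf, Egfr, Erbb4, Tgfa, Btc, Areg and Ereg. Hbegf, 16.3 FPKM, thus stood beside Egfr, 13.7 FPKM, with overlapping ranges, where on the standard diet its range lay below that of Egfr. Ranges also overlapped between Erbb2 and Erbb3, Tgfa and Btc, and Areg and Ereg, so their order is not settled. The other neighbours were apart.

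The neuregulins, which bind ErbB3 and ErbB4, and Epgn form the list of 5 other ErbB ligands, of which 2 were tested. Nrg1 rose from 1.80 ± 0.179 to 3.84 ± 0.766 FPKM (log2 change 0.78, limma adjusted p = 0.0136), with groups apart. Its call ended with quantile normalization (0.319), without standard 1 (0.0512) and without adenine 2 (0.052). Nrg4 was 1.90 ± 0.176 and 1.58 ± 0.251 FPKM and did not pass (limma adjusted p = 0.353). Of the rest, Nrg2 had a mean below 0.5 FPKM and Nrg3 was listed at 0 in every library.

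Most listed genes that release the ligands rose. Over all genes tested 29.7% rose and 6.84% fell, with a median log2 change of 0.25. Of 14 genes of ligand release 10 rose, 1 fell and 3 did not pass, with a median log2 change of 0.90. After median-of-ratios scaling 8 rose and 1 fell, with a median of 0.61, where 16.8% of all genes rose and 15.2% fell. The largest rises were those of Adam8, a protease best known in leukocytes, from 0.566 ± 0.192 to 6.13 ± 2.03 FPKM, and Adam12, a protease of mesenchymal cells that can cut Hbegf, from 1.05 ± 0.299 to 6.88 ± 1.35 FPKM (limma adjusted p = 0.00405 and 0.00358). Timp3, an inhibitor of metalloproteases, ADAM17 among them, fell from 511 ± 37.8 to 289 ± 46.2 FPKM (limma adjusted p = 0.0112). All 3 of these calls held in every alternative run.

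The main ligand shedding enzyme and its partners were singled out after their values were seen. Adam17, which frees Tgfa, Areg, Ereg and Hbegf, rose from 13.9 ± 0.876 to 25.8 ± 4.94 FPKM (limma adjusted p = 0.0108). Rhbdf1 and Rhbdf2 encode the iRhoms that carry ADAM17 to the cell surface, and Frmd8 encodes a protein that stabilises that complex. Rhbdf1 rose from 16.1 ± 2.58 to 32.3 ± 2.78 FPKM, Rhbdf2 from 4.49 ± 0.714 to 14.5 ± 1.58 FPKM and Frmd8 from 11.3 ± 2.40 to 26.2 ± 1.90 FPKM (limma adjusted p = 0.0064, 0.00332 and 0.00595). Adam10, which frees Egf and Btc, rose from 30.9 ± 3.14 to 46.4 ± 8.42 FPKM (limma adjusted p = 0.0317). This call held in 8 of 16 alternatives and ended, among others, after median-of-ratios scaling (0.127).

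**Figure D4:**
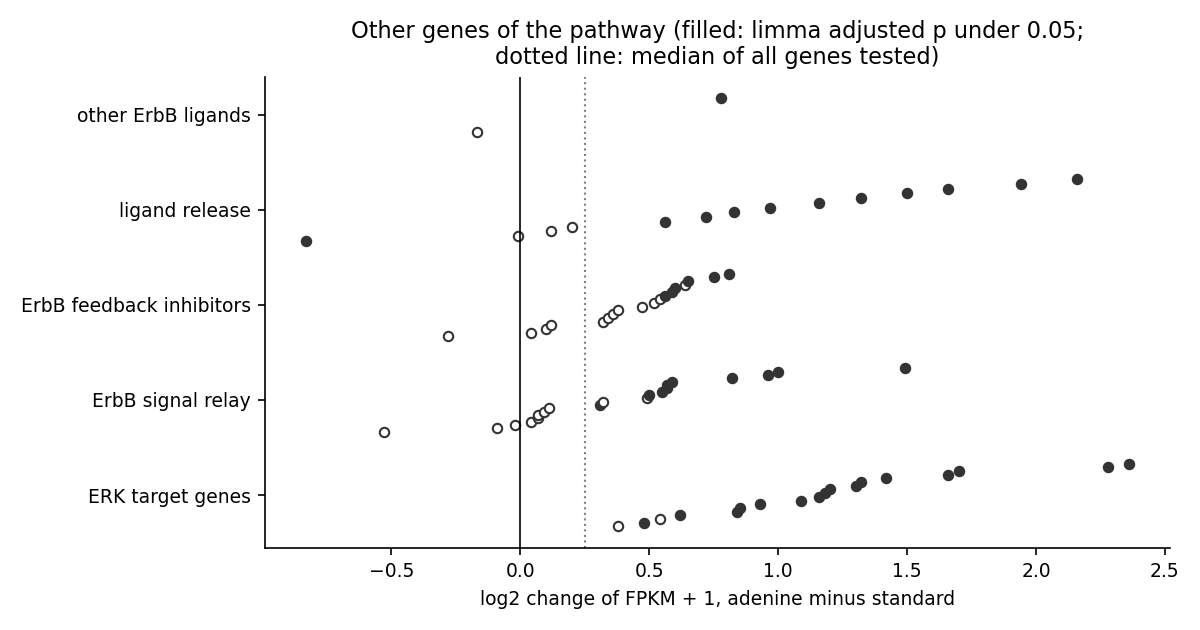
Log2 change of FPKM + 1, adenine minus standard (x axis), of each tested gene of 5 pathway lists (y axis), filled where adjusted p was under 0.05; the dotted line is the median of all genes tested, 0.25. In the ERK target list 16 of 18 genes are filled and lie to the right, and the ligand release list has 10 filled genes to the right and Timp3 to the left.

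Negative regulators of the receptors were a mixed group. Of 18 feedback inhibitors 6 rose, 0 fell and 12 did not pass (limma, 0 lower also at an unadjusted p under 0.05), with a median log2 change of 0.49 against 0.25 for all genes tested. The 6 rises are near the background share, 29.7% of all genes. Dusp4, a phosphatase that switches ERK off, rose from 6.59 ± 1.48 to 12.1 ± 0.648 FPKM, and Spry2, a Sprouty inhibitor of the Ras relay, from 6.94 ± 1.16 to 12.3 ± 0.0731 FPKM (limma adjusted p = 0.012 and 0.00915). These counts depended on the scaling: with median-of-ratios values 1 of the 18 rose, Spry2 (Dusp4 was at 0.0526), where 16.8% of all genes did. Under quantile normalization 0 rose (limma, 3 higher at an unadjusted p under 0.05), where 13.9% of all genes did. With the replicate number as a block 8 rose, where 31.3% of all genes did. The 6 became 3 without adenine 2 and 10 without adenine 3, 4 without standard 1 and 5 without each other library. Rises over all genes tested went from 4581 to 1833 without adenine 2, 5480 without adenine 3 and 2391 without standard 1. Without each other library they were 2341 to 3026. Errfi1, an inhibitor that binds the EGFR kinase and the most abundant gene of this list, was 177 ± 32.4 and 147 ± 35.6 FPKM and did not pass (0.345). It was named for its level, after its values were seen.

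Of 20 genes of the signal relay 10 rose, 0 fell and 10 did not pass, with a median log2 change of 0.41 (limma, 1 lower at an unadjusted p under 0.05). Over all genes tested 29.7% rose and 6.84% fell, with a median of 0.25. Stat3, a transcription factor that also serves cytokine receptors, rose from 26.8 ± 4.79 to 76.9 ± 10.9 FPKM, and the kinase gene Akt1 from 38.5 ± 3.91 to 78.3 ± 11.1 FPKM (limma adjusted p = 0.00419 and 0.00554). After median-of-ratios scaling 5 rose and 2 fell, near the 16.8% and 15.2% of all genes, and with the replicate number as a block 10 rose and 1 fell. The number of rises was 4 when standard 1, standard 3 or adenine 2 was left out, 5 for adenine 1, 6 for standard 2 and 11 for adenine 3. Rises over all genes tested moved as well, from 4581 to 2391, 2341 and 1833 without standard 1, standard 3 and adenine 2. They were 3026 without adenine 1, 2516 without standard 2 and 5480 without adenine 3.

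Most listed target genes of ERK rose. Of 19 genes 18 were tested, 16 rose, 0 fell and 2 did not pass, with a median log2 change of 1.17 (limma, 0 lower also at an unadjusted p under 0.05). Over all genes tested 29.7% rose and the median was 0.25. Median-of-ratios scaling left 15 rises, where 16.8% of all genes rose, and a median of 0.92. Leaving out 1 library gave 12 to 17 rises, where those over all genes went from 4581 to between 1833 and 5480. Egr2, an early growth response factor, rose from 0.353 ± 0.115 to 6.33 ± 2.75 FPKM, and Junb, an AP-1 subunit, from 9.83 ± 1.46 to 52.7 ± 14.7 FPKM (limma adjusted p = 0.00556 and 0.00375). Many receptors besides the ErbB family also act on these genes.

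Markers of other cells moved with these changes. As a background for the marker counts, 29.7% of all genes tested rose and 6.84% fell on the deposited values. Those shares were 16.8% and 15.2% on median-of-ratios values, 13.9% and 14.5% on quantile values, and 31.3% and 7.34% under the replicate block. Whether any marker list differs from these shares was not tested. All 8 macrophage markers rose, and their summed level was 75.0 to 80.9 FPKM in the standard libraries and 724, 468 and 335 FPKM in adenine 1 to 3. All 5 injured tubule markers rose as well, summing to 10.2 to 14.5 FPKM against 707, 787 and 334 FPKM, and all 5 fibroblast markers rose, summing to 83.8 to 111 FPKM against 949.6, 802 and 476 FPKM. After median-of-ratios scaling or quantile normalization 4 of the 5 fibroblast markers rose. Proximal tubule markers were lower, with 4 of 5 falling and sums of 1766, 2354 and 2360 FPKM in standard 1 to 3 against 721, 1021 and 1392 FPKM in adenine 1 to 3, the order of Egf among the adenine libraries. Median-of-ratios scaling also gave 4 falls and quantile normalization 2. All 4 podocyte markers rose, but 2 did so after either scaling and 3 with the replicate block. Of the 4 endothelial markers 0 passed (limma, 1 higher and 1 lower at an unadjusted p under 0.05), though 2 fell after either scaling. They summed to 78.4 to 94.2 against 89.0 to 94.8 FPKM. Of the 6 urothelium markers 0 passed (limma, 2 higher at an unadjusted p under 0.05), and 1 rose with the replicate block. They summed to 26.3 to 31.3 against 30.7 to 54.5 FPKM. Of the 4 neutrophil markers 2 were tested and 0 passed (limma, 2 higher at an unadjusted p under 0.05), at 2.30 to 11.7 against 8.56 to 32.1 FPKM in sum. The 4 mast cell markers were all below the filter, at 0 to 0.102 against 0.431 to 1.76 FPKM in sum, with Fcer1a at 0 in every library. The 4 T cell markers, 3 of which rose, and the 4 B cell markers, of which 0 passed (limma, 0 at an unadjusted p under 0.05), summed highest in adenine 1, at 32.7 and 52.1 FPKM, where the other adenine libraries were at most 8.51 and 3.83 FPKM. The 3 T cell rises became 1 under median-of-ratios scaling, while quantile normalization left 0 (limma, 3 at an unadjusted p under 0.05). Adenine 3, which had the highest Egf and the lowest Hbegf, Tgfa, Areg and Ereg of its group, also had the lowest macrophage, injured tubule and fibroblast sums. The part of these cells in the changes of the ligands and of their pathway was not tested.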

How the data were processed

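Whole-kidney RNA was sequenced as paired reads of 100 bases, per the labels' protocols. The authors deposited FPKM values per gene, and per the submitters' processing notes bcl2fastq 2.0, TopHat, Cufflinks 2.1.1 and the mm10 (GRCm38) build were used. The deposited tables hold 6 further columns of samples that were not analysed here. Strand handling is not given in the sources used here, so overlapping antisense genes cannot be separated.

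Log2(FPKM + 1) values of genes whose mean reached 0.5 FPKM were compared with limma 3.58.1 (R 4.3.3), with an intensity trend in the variance prior and Benjamini-Hochberg adjustment over all genes tested. The procedure was tested on simulated data. Shares and ratios were compared by exact permutation over the 6 samples. Depth was estimated from the steps between low FPKM values with a nominal fragment of 200 bp; 67.9% to 74.4% of those values lay within 0.15 of a whole fragment, so fragment numbers are approximate and cover counting error only. At a transcript of 2 kb, 3 fragments correspond to 0.0727 to 0.0957 FPKM.

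Same-numbered libraries of both diets deviated together from their group means (correlations 0.257, 0.143 and 0.181, against -0.187 to 0.0376 for different numbers). Deviations within a group cancel out, so the lower values follow in part from the higher ones and are not separate support. The numbers were taken as a possible pairing, used as a block only in alternatives to the main fit. This rests on the data alone, since no label states it.

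The members and the gene lists (76 pathway and 69 marker genes) were chosen with earlier results of these data known. Named genes are all members, up to 2 rises and 2 falls of largest change per pathway list, tested genes of the other ErbB ligands, and Umod and Slc12a1; other names are marked in the text. Alternatives were other pseudocounts, filters, scalings, variance priors, the replicate block and leaving out each library.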

Additional observations from a re-analysis of the deposited data

How the results depend on the processing

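Hbegf, Adam8, Adam12, Timp3, Stat3, Akt1, Egr2 and Junb kept their direction and their call in every alternative that could test them, 15 or 16 each. The scaling moved the balance of rises and falls over all genes: from 4581 rises and 1056 falls, median-of-ratios scaling gave 2599 and 2345, quantile normalization 2140 and 2237, and the replicate block with median-of-ratios scaling 2675 and 2591. At adjusted p under 0.01 there were 1478 changed genes in place of 5637, 1324 higher and 154 lower, and leaving out 1 library gave 2053 to 7078 changed, 1833 to 5480 higher and 220 to 1598 lower. Of the members, 1 in place of 2 rose with a filter at a mean of 5 FPKM (where Tgfa was not tested), median-of-ratios scaling, quantile normalization, the replicate block with median-of-ratios scaling, or a threshold of 0.01, and 1 to 2 without 1 library. In place of 1, 0 members fell without the filter, with quantile normalization or at 0.01, 2 fell under the replicate block with median-of-ratios scaling, and 0 to 1 without 1 library. With the replicate block alone Erbb2 joined the rises (limma adjusted p = 0.0347), and no other call of a member changed. Other ErbB ligands rose in 0 cases with quantile normalization (1 fell there), and in 0 to 1 without 1 library. No gene of that list was tested at the 5 FPKM filter. Release genes gave 6 rises at the 5 FPKM filter, where Adam8, Adam12, Adam19 and Rhbdl2 were not tested. They gave 2 falls under the block with median-of-ratios scaling. Feedback inhibitors gave 1, 0 and 1 rises under median-of-ratios, quantile, and the block with median-of-ratios scaling, 1 fall in the last, and 3 to 10 rises without 1 library. Relay genes gave 5, 4 and 5 rises under the same settings, 2 falls with median-of-ratios scaling with or without the block, 1 with the block alone, and 4 to 11 rises and 0 to 1 falls without 1 library. The log2 sign turned for Tgfa with quantile normalization (-0.02), for Btc without standard 1, adenine 1 or adenine 3 (0.04, 0.02 and 0.03; range without 1 library -0.23 to 0.04), for Egfr without standard 2, adenine 1 or adenine 3 (0.10, 0.02 and 0.05; range -0.19 to 0.10), and for Erbb4 with median-of-ratios scaling (-0.00, also with the block) and quantile normalization (-0.18). The cause of these differences was not tested beyond the fewer genes or libraries. Summing entries of a symbol was not run, since each symbol listed has 1 entry. Depth leaves Areg and Ereg at 0 to 2 fragments in the standard libraries.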
